A study of Homo sapiens with 29 samples.

Results

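Tumours grown from paclitaxel-resistant MDA-MB-231 cells were compared with tumours grown from the parental MDA-MB-231 line when both had received doxorubicin. The comparison took every library whose title gave doxorubicin alone, which were 4 resistant and 3 parental libraries of 29 in the series. The labels give 4 mice for each treatment. MDA-MB-231 is a human breast cancer line that lacks oestrogen receptor, progesterone receptor and HER2 amplification and has a mesenchymal form, and the resistant cells are its paclitaxel-resistant derivative. The cells were injected into the mammary tissue of SCID-beige mice on both sides, with 250000 parental or 1500000 resistant cells. Doxorubicin was given at 1 mg/kg on days 5 and 12 of each of 2 cycles of 12 days with 2 days of rest between them, starting on day 6 after injection for parental and day 16 for resistant tumours, and treatment ran for 26 days. The vehicle libraries used beside them (4 of each line) came from mice given vehicle solution in the same scheme, and those of decitabine alone (4 parental and 3 resistant) or of both drugs (4 and 3) from mice given 0.4 mg/kg decitabine on days 1 to 4 and 10 to 11 of each cycle. Line, number of cells injected and day of first treatment changed together and cannot be told apart. The age of the mice, the number of clones in the resistant line and the mouse behind each library are not given in the sources used here, so libraries may share a mouse, and the p-values then measure only how these libraries vary.

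Doxorubicin is an anthracycline that enters DNA and traps topoisomerase II on cut strands, and cells can escape it by pumping it out through ABC transporters, by lowering topoisomerase II or by tolerating the breaks. Paclitaxel acts on another target, the beta-tubulin of microtubules, yet the efflux pump ABCB1 carries both drugs, so selection on the one can blunt the other. The comparison asks how the paclitaxel-resistant tumours differed from their parent when both were under the second drug.

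RNA was read with a 3' tag method (QuantSeq), in which counts do not grow with transcript length. Each of the 7 libraries held between 4202055 and 5280590 counts, of which mitochondrial genes took 7.02% to 9.45%. The first principal component of the 7 libraries carried 60.1% of the variance and separated the lines. Parental library 3 stood apart from the other parental libraries on the second component (12.0%), so results that rest on it are given without it as well. Carcinoma markers fixed for the line (VIM, CD44, FN1, KRT8, KRT18, AXL and CAV1) were present in all 7 libraries with sums of 6076 to 7963 CPM (counts scaled to a common library total). Of the 4 markers listed as low (ESR1, PGR, ERBB2 and GATA3), PGR had no count in any library, and GATA3 stood at 22.2 to 46.9 CPM. GATA3 was among the genes called higher in resistant tumours below (log2 0.86). The 4 summed to 39.9 to 44.8 CPM in parental and 56.2 to 67.7 CPM in resistant libraries. Sums of human-mapped markers of host cell types are given beside the results they touch.

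Under doxorubicin 1879 of 13495 genes tested passed an adjusted p of 0.05 in edgeR's quasi-likelihood test (13.9%). Of these, 793 were higher in resistant tumours (5.88% of genes tested) and 1086 were lower (8.05%). The difference was at least 1 on the log2 scale for 748 of them, 419 higher and 329 lower, and the median over all genes tested was 0.01. Upper-quartile scaling put 52.3% of calls on the higher side, against 42.2% with TMM scaling, and moved the median to 0.06. Without parental library 3 the lower calls numbered 685, and without parental library 1 the higher calls numbered 516. In bulk tissue fewer cells of a type and less RNA per cell cannot be told apart. Most of these genes also differed between the lines in libraries that had not seen doxorubicin alone. Under vehicle 1232 of the 1879 (65.6%) were called in the same direction and 2 in the opposite one. The line difference there called 2718 genes in all (20.1%), against 3616 under decitabine (26.8%) and 2960 under both drugs (21.9%). In all 4 treatments 780 genes were called in the same direction, 330 higher and 450 lower. Across the 13495 genes, which are not independent, the doxorubicin and vehicle log2 differences had a Pearson r of 0.76, from libraries that the comparisons do not share.

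**Figure D1:**
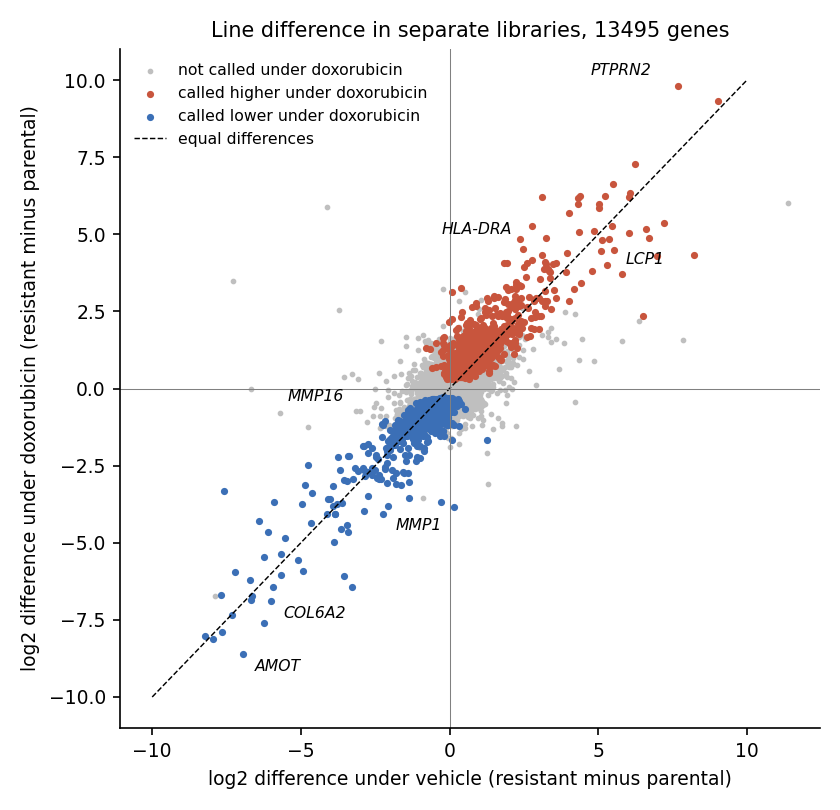
Each point is 1 of 13495 genes, with the log2 difference between resistant and parental tumours under vehicle on the x axis and under doxorubicin on the y axis; coloured points were called under doxorubicin, and the dashed line marks equal differences. Called genes lie along the line, with PTPRN2, LCP1 and HLA-DRA high and AMOT and COL6A2 low in both; MMP16 lies away from it, at -0.27 under doxorubicin and -2.08 under vehicle.

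The strongest differences were genes read in 1 line and hardly at all in the other. PTPRN2, a phosphatase-like protein of secretory granules (chr7:157539056-158587788, GRCh38), had no count in the 3 parental libraries and 36.7, 21.1, 18.1 and 21.7 CPM in the resistant ones. With 464 resistant counts it was at least 112-fold higher, taking the parental group at a floor of 3 counts (adjusted p = 5.18e-07). The long non-coding RNA LINC00470 had no parental count either, stood at 15, 15.3, 21.7 and 18.3 CPM in the resistant libraries and was at least 79.3-fold higher (adjusted p = 4.28e-09). Both genes separated the lines in every library, as did 27.8% of all genes tested, which had no overlap between the groups. F2RL2, the thrombin receptor PAR3, had 0.385, 1.1 and 0.261 CPM in parental and 40.9, 35.5, 30.0 and 34.7 CPM in resistant libraries, a log2 difference of 5.84 ± 0.52 (SE; adjusted p = 9.12e-09). DMKN, a secreted keratinocyte protein, stood at 0.769, 0.878 and 0.782 against 23.6, 19.8, 31.8 and 36.4 CPM (log2 5.06, adjusted p = 1.12e-09). All 4 resistant libraries exceeded all 3 parental ones for both. For THSD7B the parental libraries together held 1 count and the resistant ones 143, a ratio of 103 with an exact 95% counting interval of 18.3 to 4110. DMTN, an actin-bundling protein, had 1 and 121 counts, a ratio of 87.5 (15.4 to 3482). KCNU1, a sperm potassium channel, had 3 and 154 counts, a ratio of 37.1 (12.5 to 182). The X-linked MAGEH1 stood at 16.4, 17.7, 14.5 and 12.8 CPM in resistant libraries and at most 1.04 in parental ones (log2 5.27, adjusted p = 3.43e-07). TEX41, a non-coding RNA, had 1 and 96 counts, a ratio of 69.4 (12.2 to 2769).

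In the other direction 16 called genes had no count in the 4 resistant libraries. AMOT, the angiomotin scaffold that binds YAP (chrX:112774503-112840815, GRCh38), stood at 12.5, 10.3 and 8.6 CPM in the parental libraries and at 0 in every resistant one, and was at least 66.9-fold lower (145 counts against none, adjusted p = 4.03e-09). GABRE, a GABA-A receptor subunit, had 9.23, 8.78 and 4.17 CPM in parental libraries and was at least 48.0-fold lower. The zinc finger gene ZNF354C had 5.96, 8.12 and 7.04 CPM and was at least 43.8-fold lower, KRBOX1 was at least 40.6-fold lower, and PPL, the desmosomal periplakin, at least 33.7-fold lower. None of the 5 overlapped, and they were called lower under vehicle as well. A pair of matrix genes were almost silent in the resistant line. COL6A2, a chain of collagen VI, stood at 33.9, 9 and 3.91 CPM in the parental and 0.2, 0, 0.224 and 0 CPM in the resistant libraries (232 against 2 counts, parental over resistant 160, interval 43.9 to 1333). Its parental values spread widely, yet the lowest of them exceeded each resistant one. MMP2, a gelatinase, stood at 4.23, 7.24 and 4.69 CPM in parental libraries and had 1 resistant count against 73 (parental over resistant 101, interval 17.6 to 4043). AGR2, a disulphide isomerase of secretory cells, had 17.7, 18.2 and 19.3 against 1.8, 0.436, 1.79 and 0.21 CPM (log2 -4.08, adjusted p = 4.17e-07). The non-coding RNA CASC15 had 111 and 2 counts (parental over resistant 76.8, interval 20.8 to 642), and FSIP2, a sperm tail protein, had 86 and 2 (59.5, interval 16.0 to 499).

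**Figure D2:**
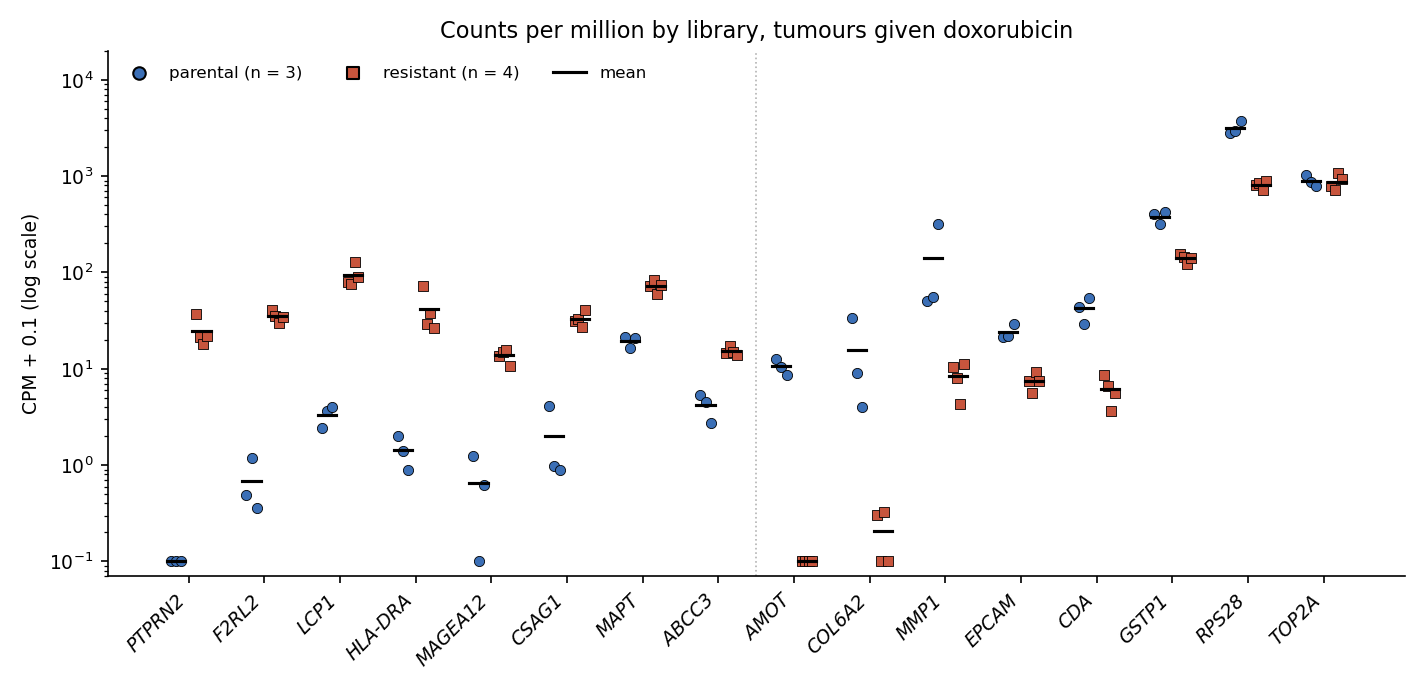
Points are libraries of doxorubicin-treated tumours (circles parental, n = 3; squares resistant, n = 4), bars are means, and the y axis is CPM plus 0.1 on a log scale. Genes left of the dotted line were higher in resistant tumours, and those to its right were lower, other than TOP2A, whose groups overlap; MMP1 shows parental library 3 above the other 2.

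HLA class II genes were the list with the highest median among tested members. Of 15 listed genes 9 passed the filter on low counts. A gene can pass that filter through the groups where it is high, so the median and counts of this list may lean upward. Class II molecules show peptides from outside the cell to CD4 T cells. They are usually made by antigen-presenting cells, and other cells can make them under the transactivator CIITA after interferon-gamma. Of 9 members tested edgeR called 7 higher in resistant tumours (77.8%, against 5.88% of all genes) and none lower. DESeq2 called 8 higher and none lower, and an unadjusted p under 0.05 was reached by 9 and none, against 3580 of all 13495 genes in either direction. The list median was 2.84 against 0.01 over all genes. HLA-DRA, the invariant DR alpha chain (chr6:32439842-32445046, GRCh38), stood at 1.92, 1.32 and 0.782 CPM in parental and 72.9, 29.2, 37.6 and 26.1 CPM in resistant libraries, a log2 difference of 4.88 ± 0.54 (SE; adjusted p = 4.17e-07). HLA-DRB1, its partner, stood at 1.15, 1.1 and 0.521 and 54.1, 17, 18.8 and 22.7 CPM (log2 4.85, adjusted p = 4.34e-05), with resistant library 1 far above the other 3. HLA-DPB1 stood at 0.385, 0.659 and 0.521 and 12.2, 5.45, 6.71 and 5.89 CPM (log2 3.81, adjusted p = 8.86e-05). No parental library reached a resistant one for any of the 3. HLA-DPA1 (log2 4.08) and HLA-DMB, which helps load peptide (log2 2.84), were called higher as well. So were the invariant chain CD74, at 63.9, 43.7 and 22.2 against 214, 116, 143 and 168 CPM (log2 1.88, adjusted p = 0.00116), and the protease CTSS that trims it (log2 1.63, adjusted p = 0.000215). CIITA had 2.89, 2.41 and 0.521 CPM in parental and 8.01, 4.14, 6.48 and 6.1 CPM in resistant libraries; its difference of 1.61 did not pass the test (adjusted p = 0.0654), though DESeq2, the fit on the 7 libraries alone and the fit with no filter on low counts called it. The other regulator RFX5 differed by 0.33 (adjusted p = 0.327). HLA-DPA1, HLA-DMB, CD74, CIITA and RFX5 were chosen for description after their values were seen. Reads of near-identical HLA genes may be split between them, and class II levels of single genes are uncertain for that reason.

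The difference was present under each treatment for most class II genes. HLA-DRA differed by 3.23 under vehicle, 3.75 under decitabine and 2.69 under both drugs, and was called in each. For HLA-DMB the vehicle difference of 1.31 was not called (adjusted p = 0.0739). The excess of the doxorubicin over the vehicle difference was 1.64 for HLA-DRA and 2.47 for HLA-DRB1 on the log2 scale, and neither passed the test of that excess (adjusted p = 0.638 and 0.543).

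**Figure D3:**
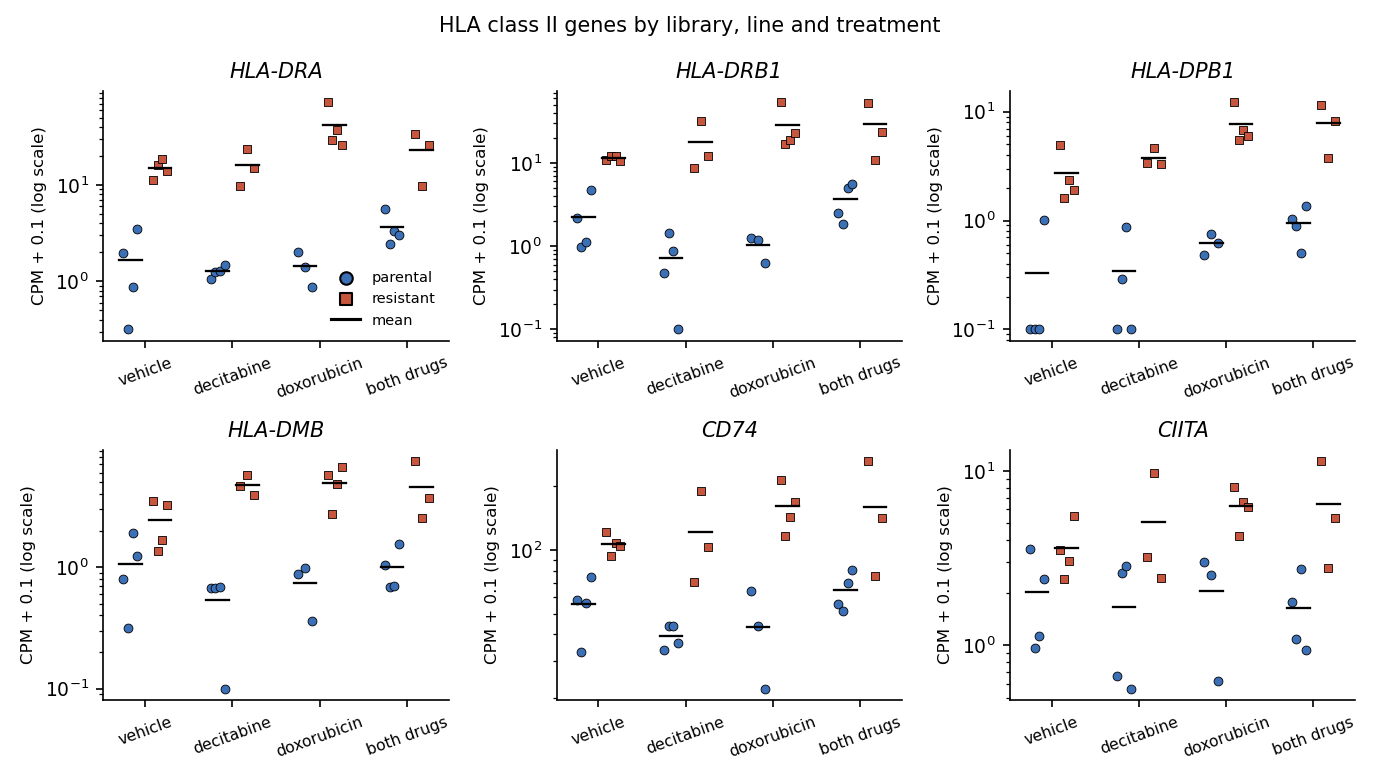
Each panel is 1 gene; points are libraries (circles parental, squares resistant), bars are means, and the y axis is CPM plus 0.1 on a log scale for the 4 treatments. Resistant HLA-DRA libraries under doxorubicin lie between 26.1 and 72.9 CPM, above every parental library of the same treatment, and the CIITA groups lie closer together.

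The promoters of these genes are shown because the genes moved together. Known class II promoters carry the S-X-Y module, whose Y box is an inverted CCAAT element. The letters ATTGG or CCAAT on the printed strand, which covers both strands, were searched in the 300 bases from 250 before to 50 after each gene start in RefSeq (GRCh38.p14, first entry of a gene). Capitals mark the matches, in 4 of the called genes:
HLA-DRB1 (chr6:32589799-32590098, minus strand): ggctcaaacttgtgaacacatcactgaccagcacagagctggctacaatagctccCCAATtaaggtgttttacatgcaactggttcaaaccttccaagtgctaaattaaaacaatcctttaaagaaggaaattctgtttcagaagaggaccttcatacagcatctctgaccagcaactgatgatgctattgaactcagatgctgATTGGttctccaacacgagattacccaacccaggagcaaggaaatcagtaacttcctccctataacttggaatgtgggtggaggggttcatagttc
HLA-DPB1 (chr6:33075740-33076039, plus strand): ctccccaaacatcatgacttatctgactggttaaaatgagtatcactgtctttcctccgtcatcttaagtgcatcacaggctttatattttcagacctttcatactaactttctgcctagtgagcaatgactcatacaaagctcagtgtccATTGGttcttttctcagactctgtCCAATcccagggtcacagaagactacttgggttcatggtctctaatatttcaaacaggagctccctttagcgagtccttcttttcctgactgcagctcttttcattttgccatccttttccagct
HLA-DMB (chr6:32940979-32941278, minus strand): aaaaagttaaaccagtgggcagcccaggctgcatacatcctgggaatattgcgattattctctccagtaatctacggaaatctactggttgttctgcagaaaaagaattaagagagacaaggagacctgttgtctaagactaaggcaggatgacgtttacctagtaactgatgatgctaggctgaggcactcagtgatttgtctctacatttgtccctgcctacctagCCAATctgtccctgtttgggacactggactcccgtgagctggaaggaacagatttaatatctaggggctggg
CD74 (chr5:150412861-150413160, minus strand): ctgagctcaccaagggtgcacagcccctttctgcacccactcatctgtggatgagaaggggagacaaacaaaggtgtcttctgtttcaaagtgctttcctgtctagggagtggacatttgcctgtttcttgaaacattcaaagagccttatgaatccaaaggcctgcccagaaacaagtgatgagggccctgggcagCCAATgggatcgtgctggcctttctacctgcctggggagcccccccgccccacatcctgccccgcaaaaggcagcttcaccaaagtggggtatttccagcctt
Of the 9 tested class II genes 6 had an entry, and 5 of these held a match, against 9747 of 27305 promoters in the table (35.7%). A match is a description of letters in either orientation, not a Y box, and HLA-DPA1 had none in its window. On the printed gene strand HLA-DMB and CD74 held CCAAT only, and not the inverted ATTGG.

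Interferon-stimulated genes are the antiviral programme set off by interferons or by nucleic acids in the cytoplasm. Under doxorubicin 11 of 47 tested were higher (23.4%, against 5.88% of all genes) and 1 lower (2.13%, against 8.05%), with a median of 0.40. Under vehicle 1168 of all 13495 genes were called higher and 1550 lower. There the same list held 5 higher and 8 lower genes of 47, with a median of -0.15 against 0.02 over all genes. No member passed the test of the line difference under doxorubicin minus that under vehicle, with a lowest adjusted p of 0.145. MX2, a restriction factor, stood at 0.385, 0.22 and 0.261 CPM in parental and 3, 1.96, 2.91 and 5.05 CPM in resistant libraries (log2 3.35, adjusted p = 0.000216). OAS2, which makes the activator of RNase L, stood at 17.7, 17.3 and 8.34 and 34.8, 28.3, 37.6 and 57 CPM (log2 1.43, adjusted p = 0.00408), and OASL differed by 1.44 and the helicase-like DDX60 by 0.97. The groups did not overlap for MX2, OAS2, OASL or DDX60. MX1 (log2 2.48), IFIT2 (0.87) and IFIT3 (0.86) were called in every analysis that left out 1 library. OAS1 (2.15), DHX58 (1.72), XAF1 (1.31) and PARP9 (0.71, and 0.43 without parental library 3) made up the rest of the 11, and none of these 4 was called without parental library 3. DHX58 lost its call whichever of the 7 libraries was left out. The PARP9 call was lost in 7 of 14 other analyses, that of XAF1 in 5 and that of OAS1 in 2. The lower member GBP1 (-0.72) lost its call without parental library 1. The count of higher members fell to 8 without parental library 2, parental library 3 or resistant library 1. NLRC5, the transactivator of class I genes, was higher (17.7, 17.8 and 13.6 against 28, 29, 31.5 and 32.6 CPM, log2 0.88, adjusted p = 0.0014). Of 19 class I and peptide-loading genes, however, only NLRC5, IRF1 and PSMB9 were higher (15.8%, against 5.88% of all genes). CALR and PDIA3, which fold class I chains, were lower (10.5%, against 8.05%). The IRF1 call was lost without parental library 3 or resistant library 1, and without parental library 3 NLRC5 was the 1 higher gene of this list. The PSMB9 call was also lost without resistant library 3 or 4, and that of PDIA3 without parental library 1 or 3 or resistant library 4.

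Among cytokines, chemokines and NF-kB targets 9 of 31 were higher (29%, against 5.88% of all genes) and 2 lower (6.45%, against 8.05%), with a median of 0.44. IL7R, the interleukin 7 receptor, stood at 3.27, 3.73 and 3.65 against 23, 22, 22.6 and 28.4 CPM (log2 2.75, adjusted p = 4.17e-07). BIRC3, an NF-kB-induced inhibitor of apoptosis, stood at 57.9, 66.7 and 49.3 against 157, 137, 104 and 149 CPM (log2 1.24, adjusted p = 0.000223). CSF3, the granulocyte colony-stimulating factor, differed by 3.22, CXCL1 by 1.69, SOD2 by 1.19, TNFAIP3 by 0.97 and NFKBIZ by 0.76. The CXCL1 call was lost without parental library 1, parental library 3 or resistant library 1, and the TNFAIP3 call without parental library 1. The adhesion molecule ICAM1 went the other way (19.4, 27.4 and 31.5 against 16, 10.7, 5.14 and 8 CPM, log2 -1.37, adjusted p = 0.00227), as did PTGS2, the inducible cyclooxygenase (-1.22), whose call was lost without parental library 3 (log2 -0.41) or resistant library 3. Leaving out parental library 1 lowered the count of higher members to 5.

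Cancer-testis antigens are germline genes, many of them on the X chromosome, that are silent in most adult tissue and read in tumours. Of 38 listed only 10 were tested, 4 of them higher (40%, against 5.88% of all genes) and 1 lower (10%, against 8.05%), with a median of 2.07. The filter on low counts may raise this median as well. SPANXD stood at 10.6, 9.22 and 7.56 CPM in parental and 139, 111, 79.2 and 106 CPM in resistant libraries (log2 3.56, adjusted p = 6.47e-06). MAGEC2 stood at 5.19, 12.3 and 9.64 and 69.9, 73.2, 76.2 and 59.1 CPM (log2 2.96, adjusted p = 1.82e-06). SSX1 differed by 3.95 and MAGEA12 by 4.48, from 1.15, 0 and 0.521 to 13.6, 14.8, 15.7 and 10.5 CPM (adjusted p = 1.13e-06). The groups of these 4 genes did not overlap. CTAG2 was the lower member, with 27 parental counts and none in the resistant line (at least 12.5-fold lower), a call lost without parental library 2. SPANX, MAGE and SSX genes have near-identical copies, between which reads may be split. CSAG1, a neighbour of MAGEA12 named after its values were seen, moved with it, from 4.04, 0.878 and 0.782 to 31, 32.9, 27.1 and 40.8 CPM (log2 4.01, adjusted p = 2.03e-09). The 2 genes start on opposite strands, and their promoter windows share 135 bases (chrX:152733672-152733806), set in capitals:
MAGEA12 (chrX:152733507-152733806, plus strand): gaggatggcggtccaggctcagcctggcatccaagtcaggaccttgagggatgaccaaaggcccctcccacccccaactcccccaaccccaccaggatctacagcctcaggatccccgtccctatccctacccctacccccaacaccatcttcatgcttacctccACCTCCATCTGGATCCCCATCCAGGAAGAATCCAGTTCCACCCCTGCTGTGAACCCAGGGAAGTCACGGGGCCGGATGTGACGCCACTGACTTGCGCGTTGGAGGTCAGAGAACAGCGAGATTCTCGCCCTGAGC
CSAG1 (chrX:152733672-152733971, minus strand): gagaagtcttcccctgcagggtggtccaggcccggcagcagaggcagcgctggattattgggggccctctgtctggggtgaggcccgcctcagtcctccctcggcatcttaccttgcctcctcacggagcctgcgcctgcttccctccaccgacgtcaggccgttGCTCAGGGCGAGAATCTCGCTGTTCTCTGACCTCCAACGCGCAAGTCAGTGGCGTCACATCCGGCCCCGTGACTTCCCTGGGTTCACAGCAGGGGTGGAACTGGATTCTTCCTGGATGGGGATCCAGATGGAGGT
Read on its own strand, the one shared stretch is the reverse complement of the other. Both genes were called higher under vehicle (5.53 and 5.29) and under the other treatments.

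Genes best known from leukocytes were also read in these tumours. Of 38 listed 18 were tested, 7 of them higher (38.9%, against 5.88% of all genes) and 2 lower (11.1%, against 8.05%). Their median was 1.12, which the filter on low counts may raise as well. LCP1, the actin bundler L-plastin (chr13:46125920-46211871, GRCh38), stood at 2.31, 3.51 and 3.91 CPM in parental and 80.3, 76, 127 and 89.7 CPM in resistant libraries, a log2 difference of 4.86 ± 0.36 (SE; adjusted p = 6.28e-10). ITGB2, the beta-2 integrin, stood at 2.69, 2.85 and 4.43 and 11.6, 12.2, 11.9 and 16 CPM (log2 1.97), CD8A at 0.769, 0.22 and 0.521 and 4.81, 2.18, 5.37 and 2.53 CPM (log2 2.79), and the kinase gene JAK3 had 2 parental and 25 resistant counts (ratio 9.03, interval 2.25 to 78.7). LCP1, ITGB2 and CD8A separated the lines in every library. Host cells could carry some of these genes. Of the lymphoid markers CD3E, MS4A1 and NKG7 had no count in any of the 7 libraries, and the list's sum of 3.95 to 4.17 CPM in parental and 24.2 to 30.9 CPM in resistant libraries was mostly IL7R and CD8A. The 10 myeloid markers summed to 101 to 117 CPM in parental and 62.6 to 77.9 CPM in resistant libraries, with TYROBP at 0, CSF1R lower (log2 -2.17) and LAPTM5 lower (-0.67, a call lost when any 1 of parental libraries 1 and 2 and resistant libraries 1, 3 and 4 was left out). The endothelial sum ran from 41.9 to 52.1 CPM in parental and from 19.9 to 34.8 CPM in resistant libraries, with PECAM1 the 1 called member of 5 tested (log2 -1.15), while CLDN5 was at 0. Fibroblast markers summed to 578 to 1265 CPM and 225 to 1429 CPM and overlapped. The adipocyte (0.842 to 2.61 CPM over both groups), muscle (2.20 to 7.83) and erythroid (0 to 0.261) sums overlapped as well, with no member called. The part of host cells in these differences was not tested.

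**Figure D4:**
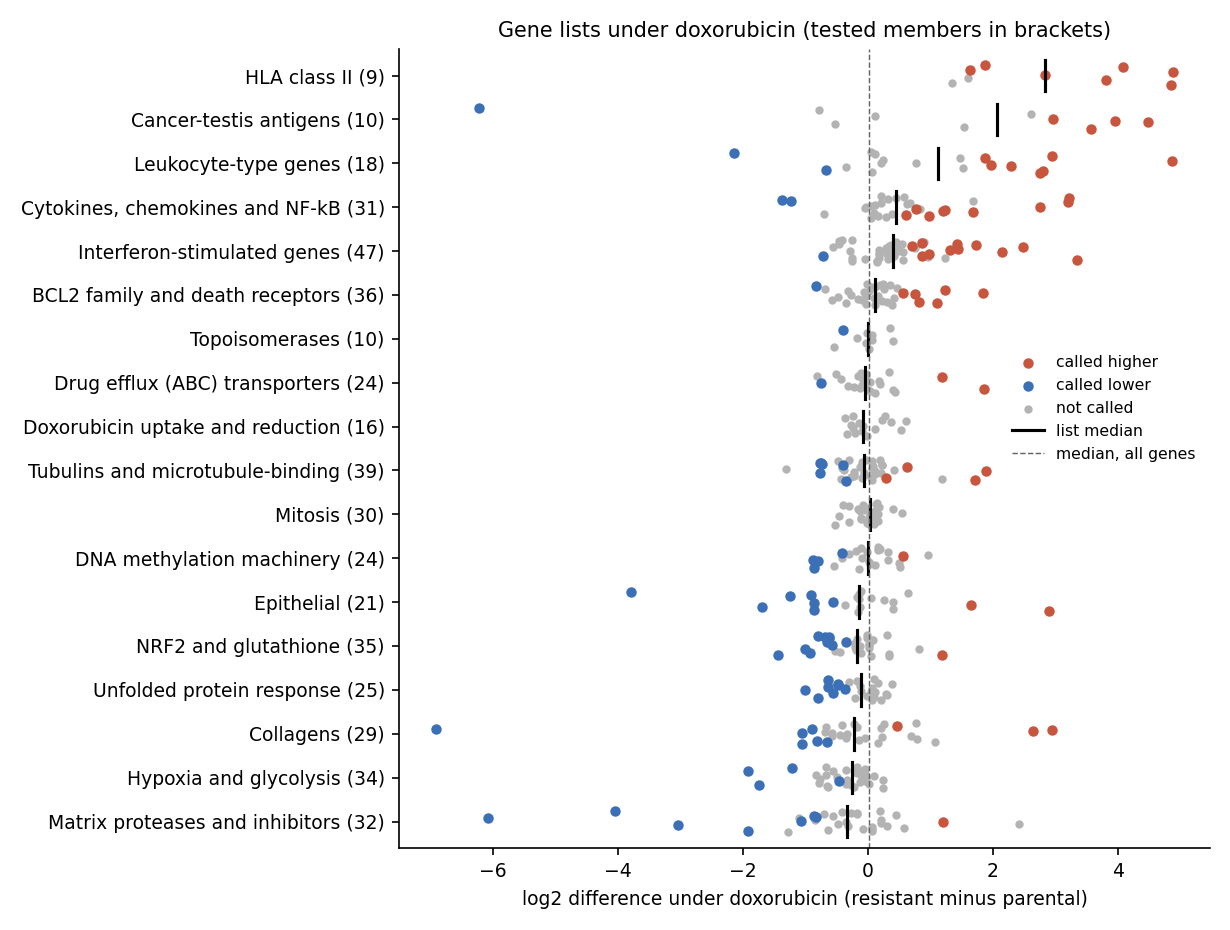
Each point is a tested member of a gene list, at its log2 difference between resistant and parental tumours under doxorubicin (x axis); red and blue points were called higher and lower, the black bar is the list median, and the dashed line is the median of all genes (0.01). HLA class II (median 2.84) and cancer-testis antigens (2.07) lie to the right, and mitosis genes lie around the line with no call.

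Of 24 ABC transporters tested 2 were higher and 1 lower (median -0.04), and the share called, 12.5%, was near the 13.9% of all genes. ABCB1, the pump for both drugs, had 2 parental and 1 resistant counts in the 7 libraries together and ABCB4 had 2 and 1, too few to compare. ABCC1 stood at 3.08, 1.76 and 1.3 against 2.4, 2.18, 1.79 and 3.16 CPM (log2 0.19 ± 0.38, SE; adjusted p = 0.811) and ABCG2 at 2.69, 1.98 and 1.3 against 1.6, 2.18, 2.46 and 1.47 CPM (log2 -0.08 ± 0.54; adjusted p = 0.949). The groups of both overlapped, and a p that misses the threshold does not show equal levels. ABCC3, an exporter of conjugated organic anions, was higher, at 5.19, 4.39 and 2.61 against 14.6, 17.2, 15 and 13.7 CPM (log2 1.86, adjusted p = 8.58e-05), and its groups did not overlap. ABCA3, a lipid transporter, was higher by 1.18, a call lost without parental library 2, and the ribosome-associated ABCF1 was lower by -0.75. TOP2A, the cell-cycle form of the drug's target, stood at 1038, 868 and 789.6 against 788, 719.5, 1076 and 930.0 CPM (log2 -0.03 ± 0.16; adjusted p = 0.929). TOP2B differed by 0.07 ± 0.13 (adjusted p = 0.789) and TOP1 by -0.18 ± 0.13 (adjusted p = 0.425). Of 10 topoisomerase genes, a list with 10% called, only the mitochondrial TOP1MT was called (log2 -0.41, lost in 8 of 14 other analyses). Of 16 genes of doxorubicin uptake and reduction edgeR called none, against 13.9% of all genes, and DESeq2 none. An unadjusted p under 0.05 was reached by 2 lower and no higher members, and by 3580 of all 13495 genes. The carbonyl reductase CBR1, which makes doxorubicinol, differed by -0.37 (adjusted p = 0.0741).

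Glutathione and NRF2 genes, which detoxify electrophiles and peroxides, were more often lower than higher. Of 35 tested 10 were lower (28.6%, against 8.05% of all genes) and 1 higher (2.86%, against 5.88%), with a median of -0.17. GSTP1, the main glutathione transferase of many carcinomas, stood at 400.3, 315 and 427 CPM in parental and 156, 144, 123 and 140.2 CPM in resistant libraries (log2 -1.44 ± 0.15, SE; adjusted p = 1.26e-07). GSTM4 (-1.01), GSTM3 (-0.80), PGD of the pentose phosphate route (-0.93), PRDX2 (-0.69), GPX3 (-0.65), GCLM (-0.63), PRDX1 (-0.58), PRDX6 (-0.35) and KEAP1, the inhibitor of NRF2 (-0.63), were the other lower members. SLC7A11, the cystine importer, was higher (44.4, 38.4 and 33.9 against 92.9, 93, 95.9 and 72.4 CPM, log2 1.18, adjusted p = 0.000869). Without resistant library 3 the lower members numbered 5, since PRDX1, PRDX2, PRDX6, GPX3 and GCLM lost their calls, and each of these 5 also lost it without at least 1 other library. Without parental library 3 the lower members numbered 7, and GPX3 (-0.48), GCLM (-0.49) and PRDX1 (-0.42) were not called.

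Of 27 damage-induced genes tested 1 was higher and 1 lower, 7.41% called against 13.9% of all genes. BBC3, encoding the pro-apoptotic PUMA, was higher (0.74) and GADD45A, a growth-arrest gene, lower (-0.62), and neither was called without parental library 3, where GADD45A differed by -0.38. BBC3 was not called without parental library 1 either. CDKN1A, the cell-cycle inhibitor p21, stood at 67.7, 64.3 and 145 against 73.7, 75.8, 59.7 and 88.2 CPM (log2 -0.31, adjusted p = 0.362), with parental library 3 above all others, and without that library the difference was 0.20, in the other direction and not called. Of 39 repair genes 7.69% were called, against 13.9% of all genes. ERCC1 (43.7, 32.9 and 48.2 against 72.3, 78.9, 71.1 and 63.1 CPM, log2 0.78, adjusted p = 0.000216) and XPA (0.81), both of nucleotide excision repair, were higher. XRCC5 was lower (-0.30, lost in 12 of 14 other analyses). Of 36 genes of the BCL2 family and death receptors 6 were higher (16.7%, against 5.88% of all genes) and 1 lower (2.78%, against 8.05%). BID, a pro-apoptotic link between both routes, stood at 22.9, 24.6 and 19.8 against 32.2, 33.8, 33.8 and 33.3 CPM (log2 0.56, adjusted p = 0.00652), and BCL2 itself was lower (-0.82, lost in 8 of 14 other analyses). Without parental library 1 the higher members of this list numbered 2.

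Microtubule genes, the target side of paclitaxel, were split. Of 39 tubulin and microtubule-binding genes 4 were higher (10.3%, against 5.88% of all genes) and 6 lower (15.4%, against 8.05%), with a median of -0.07. MAPT, the microtubule-stabilising tau protein, stood at 21.2, 16.5 and 20.8 CPM in parental and 72.9, 83.9, 59.5 and 73.3 CPM in resistant libraries, a log2 difference of 1.89 ± 0.21 (SE; adjusted p = 2.06e-07). Every resistant library lay above every parental one. MAP1A was higher as well (1.73, 1.98 and 4.17 against 6.61, 12, 8.72 and 6.53 CPM, log2 1.72, adjusted p = 0.00137). TUBB, the main beta-tubulin, was lower at 1073, 936 and 1215 against 689, 629, 538 and 662 CPM (log2 -0.77, adjusted p = 0.00116), together with TUBB6 (-0.77, a call lost without parental library 3, where it was -0.45, or without resistant library 1, 2 or 3) and the folding cofactor TBCC (-0.73). TUBB3, the isotype often linked to taxane resistance, had 1 count in the 7 libraries. Without parental library 3 the lower members numbered 2, and without parental library 1 or 2 the higher members numbered 2. Of 30 mitosis genes edgeR and DESeq2 called none, against 13.9% of all genes called in edgeR. An unadjusted p under 0.05 was reached by 1 higher and 3 lower members, and by 3580 of all 13495 genes. Of 32 replication genes only RPA2, a subunit of the single-strand binding complex, was called (3.12%, against 13.9% of all genes). It stood at 53.3, 58.4 and 52.1 against 17, 22, 15.7 and 22.1 CPM (log2 -1.51, adjusted p = 4.03e-06).

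DNA methylation genes bear on the series' other drug, decitabine. Of 24 tested 4 were lower (16.7%, against 8.05% of all genes) and 1 higher (4.17%, against 5.88%). DNMT1, the maintenance methyltransferase that decitabine traps, stood at 275, 261 and 232 CPM in parental and 160.2, 139, 169.7 and 122 CPM in resistant libraries (log2 -0.80, adjusted p = 0.000635). The methyl-CpG readers MBD2 (119, 122 and 131 against 65.7, 64.9, 69.5 and 71.1 CPM, log2 -0.87) and MBD1 (-0.86) were lower, as was TDG (-0.41, lost in 11 of 14 other analyses). No group overlapped for DNMT1 or MBD2. CDA, the cytidine deaminase that inactivates decitabine, stood at 43.7, 29.4 and 54.7 against 8.61, 6.54, 3.58 and 5.47 CPM, a log2 difference of -2.80 ± 0.28 (SE; adjusted p = 7.4e-08). The highest resistant library was far below the lowest parental one. Of the 27 genes of cytidine and nucleotide metabolism 11.1% were called lower, against 8.05% of all genes, and none higher. The other calls were CMPK1 (-0.58) and the nucleoside importer SLC29A1 (-0.44), and the SLC29A1 call was lost in 10 of 14 other analyses. The CMPK1 call was lost without resistant library 3 or 4, and without resistant library 4 only CDA kept its call in this list.

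Of 21 epithelial genes 7 were lower (33.3%, against 8.05% of all genes) and 2 higher (9.52%, against 5.88%). EPCAM stood at 21.4, 21.7 and 28.9 CPM in parental and 7.41, 5.45, 9.17 and 7.37 CPM in resistant libraries (log2 -1.70, adjusted p = 2.95e-07), and the tight-junction CLDN4 at 45.4, 48.1 and 45.1 and 25.8, 17, 18.8 and 15.8 CPM (log2 -1.25). The keratins KRT81 (-3.80), KRT7 (-0.90) and KRT19 (-0.86) were lower. The mucin MUC1 was higher, at 1.54, 0.878 and 1.82 against 13, 10.5, 8.94 and 10.1 CPM (log2 2.90, adjusted p = 4.77e-06), and so was CLDN1 (1.65, a call lost without parental library 2). Of 32 mesenchymal genes 5 were lower (15.6%, against 8.05%) and 3 higher (9.38%, against 5.88% of all genes). Among them were CDH11 (14, 13 and 13.8 against 1.8, 5.01, 4.47 and 1.68 CPM, log2 -2.07) and AXL (0.57). FN1, fibronectin, was lower by -0.66, a call lost without parental library 3, where 2 mesenchymal genes were lower. Without parental library 2 the epithelial and the mesenchymal list each had 1 higher gene, and the CAV1 call (log2 0.48) was lost without parental library 2 or 3.

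Of 32 matrix proteases and inhibitors 7 were lower (21.9%, against 8.05% of all genes) and 1 higher (3.12%, against 5.88%), with a median of -0.33. The summed level of the list was nevertheless higher in every resistant library (7185 to 7629 CPM) than in any parental one (6071 to 6532 CPM). That sum includes the inhibitor TIMP3, the 1 higher member, at 995 to 1459.6 CPM in parental and 2517 to 3145 CPM in resistant libraries. It is therefore not a measure of the proteases alone. MMP1, the interstitial collagenase, stood at 51, 55.3 and 316 CPM in parental and 10.2, 7.84, 4.25 and 11.2 CPM in resistant libraries (log2 -4.05, adjusted p = 6.2e-05). Parental library 3 was the highest by far, and without it the difference was -2.63 (adjusted p = 0.000896). MMP10, a neighbour of MMP1 on chromosome 11, stood at 8.27, 9.66 and 32.8 and 1.6, 1.31, 1.34 and 3.79 CPM (log2 -3.03, and -2.11 without that library). TIMP3, a protease inhibitor held in the matrix, was higher at 1459.6, 1229.7 and 995 against 2676, 2517, 3145 and 2972 CPM (log2 1.20, adjusted p = 2.51e-05), while TIMP1 was lower (-0.83). Of 29 collagens and collagen-modifying genes 6 were lower (20.7%) and 3 higher (10.3%). The lysyl hydroxylase PLOD1 (-1.06) and the prolyl hydroxylase P3H1 (-1.05) were among the lower ones. COL1A1 stood at 557, 467 and 1004 and 174, 1115, 505 and 235 CPM and COL3A1 at 109.8, 78.4 and 214 and 27.8, 235, 96.8 and 35.2 CPM. Neither was called (adjusted p = 0.725 and 0.778), and both varied widely within the groups, with parental library 3 and resistant library 2 highest. Of 26 integrins and laminins 5 were lower (19.2%), among them LAMC1 (-0.92), LAMA4 (-1.21) and ITGA5 (-1.15), and 2 higher (7.69%). Without parental library 1 no collagen gene was higher, without parental library 2 the lower ones numbered 3, and without parental library 3 the lower integrins and laminins numbered 3. Growth factor genes were split 3 higher (7.14%, against 5.88% of all genes) to 6 lower (14.3%, against 8.05%) of 42. NRG1 (-1.20), EPHB2 (-1.04) and FGFR1 (-0.54) were among the lower ones.

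Metabolic and folding lists held more lower than higher calls, with shares to be read against the 8.05% of all genes called lower. Chaperones of the unfolded protein response were lower in 8 of 25 (32%) and higher in none, including PDIA4 (-1.0), CALR (-0.80) and HSP90B1 (-0.64), and 4 of them were called without parental library 3. Hypoxia and glycolysis genes were lower in 4 of 34 (11.8%, median -0.25), with ANGPTL4 at 799, 808 and 1270.4 against 245, 375, 173 and 349 CPM (log2 -1.75, adjusted p = 2.75e-05), and EGLN3 and GPI were no longer called without parental library 3, nor GPI without resistant library 3, and 2 genes of this list were called without either library. At an unadjusted p under 0.05 none of the chaperone or hypoxia genes was higher, and DESeq2 called none higher. Cholesterol synthesis genes were lower in 5 of 28 (17.9%), among them the squalene epoxidase SQLE (-1.21), and in 2 without parental library 1. Of 35 nuclear genes of oxidative phosphorylation 5 were lower (14.3%), with NDUFB9 (-1.0), NDUFS5 (-0.82), COX5B (-0.75) and UQCRH (-0.71) among them. Of 31 ribosomal proteins 3 were lower (9.68%), and RPS28 stood out at 2833, 2952 and 3709.5 CPM in parental and 807, 843, 716 and 896 CPM in resistant libraries (log2 -1.96 ± 0.16, SE; adjusted p = 1.61e-09), with 1 ribosomal gene lower without parental library 3, resistant library 3 or resistant library 4. Other lists had 5 lower (14.7%) and 1 higher (2.94%) of 34 lysosomal genes and 2 lower (11.1%) and none higher of 18 imprinted genes. Of 12 aldehyde dehydrogenases 2 were lower (16.7%) and 1 higher (8.33%), and of 5 metallothioneins 1 was lower (20%). Of 13 mitochondrially encoded genes 1 was higher (7.69%, against 5.88% of all genes), MT-CYB, a call lost in 7 of 14 other analyses. The lower lysosomal genes numbered 3 without parental library 1 or 3.

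Many of the lower genes lay side by side. The log2 differences were summarised in windows of 10 Mb with at least 20 tested genes, and windows with a median of -0.15 or less in the vehicle libraries, which the doxorubicin comparison does not use, were joined into stretches. Of 41 such windows 39 also had a median below 0 under doxorubicin. Over all 249 windows the middle value of the doxorubicin medians was 0.03. The stretches held 2137 of 13443 placed genes (15.9%) and 535 of the 1086 genes called lower under doxorubicin (49.3%), against 64 of 789 placed genes called higher (8.11%). The longest covered megabases 0 to 120 of chromosome 1, with a doxorubicin median of -0.32 over 751 genes, 205 of them called lower and 17 higher. On chromosome 6 megabases 0 to 50 had a median of -0.38 (118 lower and 15 higher of 365), and on chromosome 18 megabases 30 to 80 had -0.52 (47 lower and 2 higher of 118). On chromosome 19 megabases 10 to 20 had -0.36 (66 lower and 6 higher of 217), on chromosome 2 megabases 90 to 110 had -0.38 (22 and 3 of 73), and on chromosome 4 megabases 30 to 60 had -0.30 (18 and 0 of 72). In the other direction 32 windows had a vehicle median of 0.15 or more, and all 32 were above 0 under doxorubicin. The longest of these, megabases 70 to 140 of chromosome 9, had a doxorubicin median of 0.29 (47 higher and 5 lower of 374). The width, the limit and the choice of vehicle were set after the data were seen, the libraries of each line share its cells, and DNA was not measured.

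**Figure D5:**
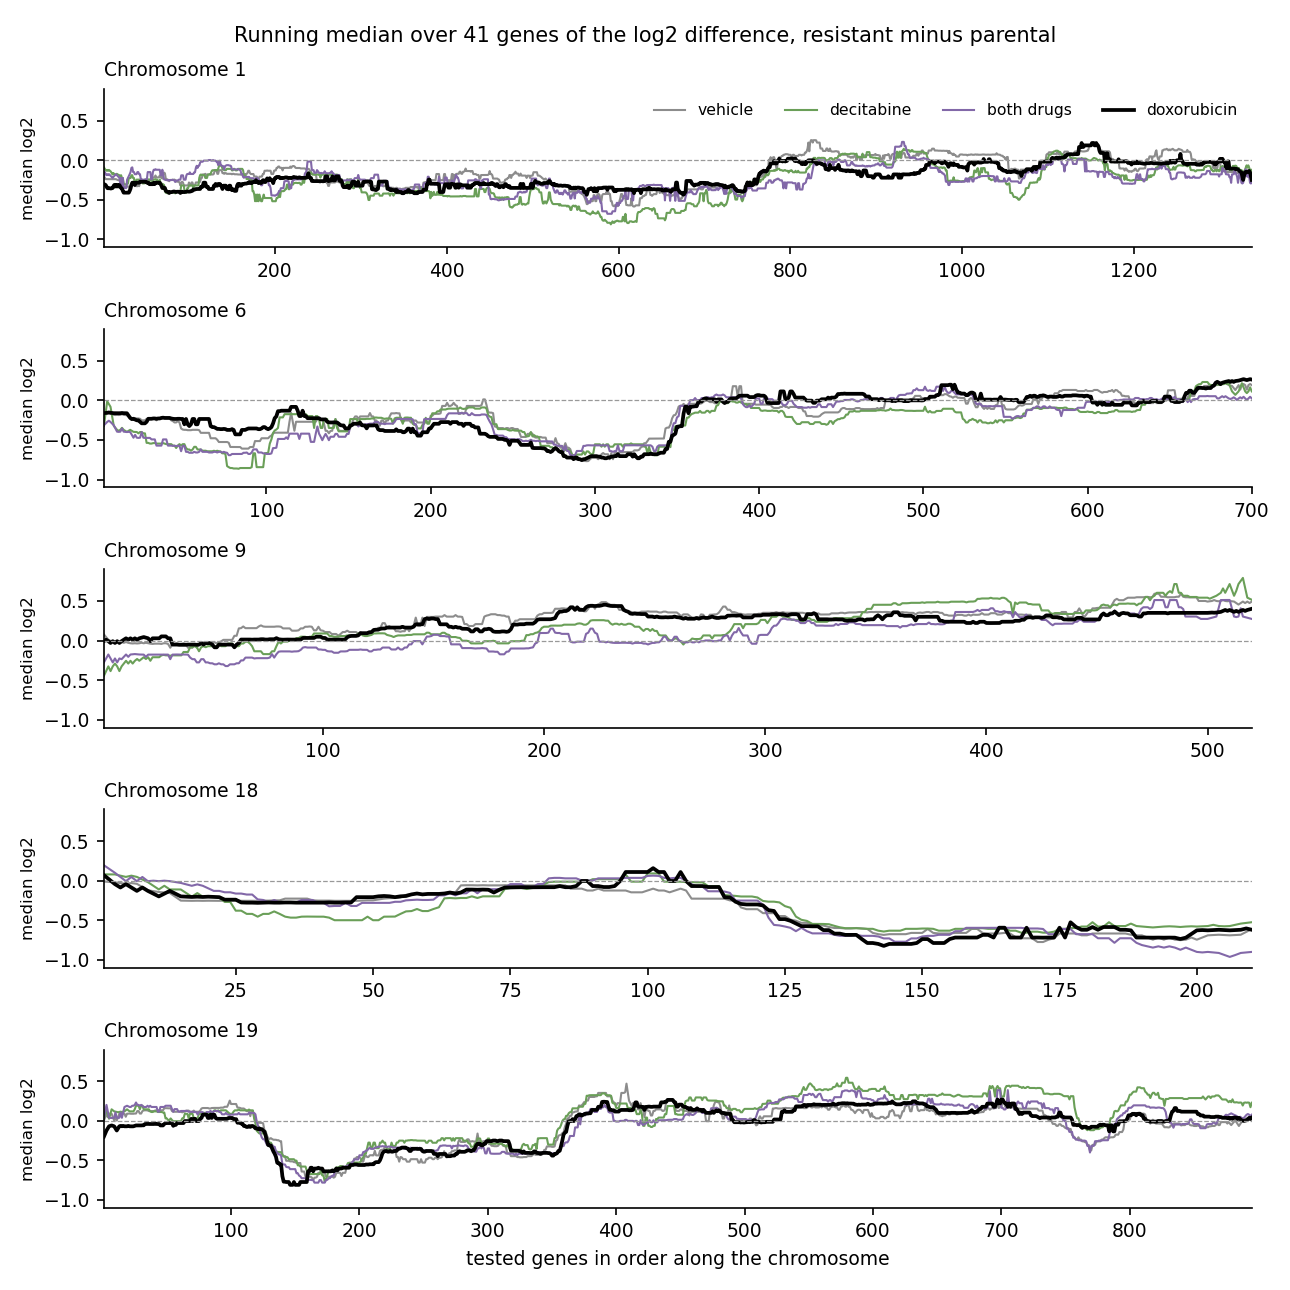
Lines are running medians over 41 neighbouring tested genes of the log2 difference between resistant and parental tumours, drawn by gene order along 5 chromosomes for each of 4 treatments (doxorubicin in black). The left part of chromosomes 1 and 6 and the right part of chromosome 18 lie mostly below 0 in all 4 treatments. The line for both drugs reaches 0 within the left part of chromosome 1. The right part of chromosome 9 lies above 0 under doxorubicin.

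Lists differed in how many of their lower members lay in these stretches, which held 15.9% of all placed genes and 49.3% of all genes called lower. The counts of lower members are to be read against the 49.3% and against the share of each tested list in the stretches, given in brackets. Each list had few lower members. The stretches held 7 of the 10 lower NRF2 and glutathione genes (20% of the tested list lay there) and all 5 lower oxidative phosphorylation genes (22.9%). They also held 3 of the 4 lower methylation genes, DNMT1, MBD1 and MBD2 (16.7%), and 4 of the 6 lower microtubule genes (23.1%). All 3 lower cytidine genes, CDA, CMPK1 and SLC29A1, lay there (22.2%). Of other lists the stretches held 1 of 8 lower unfolded protein response genes (4%), 1 of 7 epithelial (9.52%) and 2 of 6 collagen genes (10.3%). They held 1 of 6 growth factor (19%), 1 of 5 mesenchymal (6.25%) and 1 of 5 lysosomal genes (5.88%). None of the 5 lower integrin and laminin genes (3.85%) or the 7 lower matrix proteases (3.12%) lay there. A list with few tested genes in the stretches could have few lower genes there. HLA-DRA, HLA-DRB1, HLA-DPB1 and HLA-DMB, all higher in the resistant line, lie within the chromosome 6 stretch, where 118 of 365 genes (32.3%) were called lower. CD74, higher as well, lies on chromosome 5. Of the 9 tested class II genes 6 were in the stretches and none of them was lower.

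Whether doxorubicin changed the line difference was tested directly, as the line difference under doxorubicin minus that under vehicle. No gene passed in edgeR (0% of 13495 called), 1078 had an unadjusted p under 0.05, and DESeq2 called 31. The lowest adjusted p was 0.0622, for MMP16, a membrane-bound metalloprotease. Its parental level was 17.6 ± 1.09 CPM (SD, n = 4) under vehicle and 6.95 ± 2.81 CPM (SD, n = 3) under doxorubicin, whereas its resistant level was 4.13 ± 0.712 and 5.84 ± 1.63 CPM (SD, n = 4 each). The line difference was -2.08 under vehicle and -0.27 under doxorubicin, a change of 1.81 ± 0.32 (SE). Its change passed without parental doxorubicin library 2 (adjusted p = 0.0171) or resistant doxorubicin library 1 (adjusted p = 0.00795). With all libraries kept it passed under upper-quartile scaling (adjusted p = 0.0473) and with a replicate block (adjusted p = 0.0483). PCNX4, a membrane protein, followed with a change of 0.96 (adjusted p = 0.0869): it stood at 85.8, 83.6 and 79.7 CPM in parental and 127, 137, 179 and 123 CPM in resistant libraries under doxorubicin, and was not called under vehicle (-0.19). TMF1, a Golgi protein, had a change of 0.85 (adjusted p = 0.145), with no difference called under doxorubicin (0.03) and -0.82 under vehicle, and passed without parental vehicle library 2 (adjusted p = 0.0112). The 309 genes called between the lines under doxorubicin and under no other treatment therefore cannot be called particular to doxorubicin: the smallest adjusted p of the change among them was 0.0869.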

How the data were processed

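RNA of snap-frozen tumours was sequenced by 3' tag counting (QuantSeq FWD, per the labels' protocols). The authors deposited raw read counts per gene, 1 table for 29 libraries. The tools were STAR 2.7.3a, cutadapt, featureCounts and DESeq2, with genome build GRCh38.p10, per the submitters' processing notes. How mouse reads were handled, the strand setting and the annotation release are not given in the sources used here.

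Counts were fitted in edgeR 4.0.16 (R 4.3.3, limma 3.58.1) with TMM scaling, filterByExpr, robust quasi-likelihood and a mean for each of 8 groups over all 29 libraries; 13495 of 58302 genes were tested, with p-values adjusted by Benjamini-Hochberg over all of them and a threshold of 0.05. All 29 libraries held 3398261 to 5382295 counts. CPM use TMM-scaled library sizes. All log2 differences are resistant minus parental, and positive values are higher in resistant tumours. Counting intervals and floors cover counting error only. A difference against a group without counts is given against a floor of 3 counts over the group. Scripts were tested on simulated data. DESeq2 1.42.0, other scalings and filters, a replicate block, the 7 libraries alone and leaving out each library were alternatives. Replicate numbers do not pair the samples (correlations of deviations 0.11, -0.12 and -0.08).

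The members and lists were chosen with earlier results of these data known. Named genes were the largest differences per direction with at least 5 CPM and no overlap, up to 4 called members of each list by adjusted p, fixed drug-response genes, and genes without counts in 1 group; other list members named, and CSAG1, were chosen after their values were seen. Genes of the list for HLA class II and the leukocyte list are partly shared with other lists. Promoters are from RefSeq. Some list members that the counts include are not reported here by name.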

Additional observations from a re-analysis of the deposited data

Results flagged for a closer look

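Among the resistant doxorubicin libraries, 16 of 153 genes named in the text had 1 library far from the other 3. Chance flags about 1 in 20 groups. HLA-DRB1 stood at 54.1 CPM in resistant library 1, against 17.0 to 22.7 in the others. Resistant library 2 was high for FN1 (1621 CPM against 1309 to 1325) and low for UQCRH (342 against 349 to 350.3). Resistant library 3 was high for TOP2B (183 CPM against 151 to 155) and TEX41 (8.50 against 3.60 to 4.42), and low for PTGS2 (12.1 against 20.4 to 21.3). Resistant library 4 was high for IL7R (28.4 CPM against 22.0 to 23.0), ITGB2 (16.0 against 11.6 to 12.2), MMP10 (3.79 against 1.31 to 1.60) and TUBB6 (821 against 629 to 655). It was low for SLC7A11 (72.4 against 92.9 to 95.9) and GSTM4 (4.21 against 6.21 to 6.32). For ABCB1 (0.224 CPM, library 3), MMP2 (0.224, library 3), CASC15 (0.447, library 3), ABCB4 (0.210 CPM, library 4) and the summed erythroid markers (0.218 CPM) the flagged library was the 1 with any count.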

How the results depend on the processing

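No called named gene changed direction in any analysis run. Of the uncalled ones 7 had a log2 difference on both sides of 0: CDKN1A (-0.51 to 0.20), ABCC1 (-0.0074 to 0.62), ABCG2 (-0.26 to 0.21), TOP2A (-0.14 to 0.08), COL1A1 (-1.15 to 0.01), COL3A1 (-1.33 to 0.09) and TMF1 (-0.03 to 0.13). The 1879 calls under doxorubicin numbered between 1826 and 2152 with DESeq2's size factors, upper-quartile scaling, 2 other filters, DESeq2 or the 7 libraries alone, 1253 to 1623 when 1 library was left out, and 191 in a test against a log2 difference of 1. With a replicate block, for libraries that share only a number, 1785 were called (1693 shared), and 1 gene passed the test of change against vehicle. That test called 0 genes as reported, 1 with upper-quartile scaling, 31 with DESeq2, 108 with no filter on low counts, and 0 to 1 when 1 library was left out. The cause of these shifts was not tested. Of 137 named genes that were called, 102 kept the call in each of up to 14 analyses other than the test against 1, and 35 lost it in at least 1, 25 of them without parental library 3. COL1A1 and COL3A1 were called with no filter on low counts. The lower stretches, whose other settings were chosen after seeing the data, held 34.1% of lower calls in 8.24% of genes at a median of -0.3, 42.5% in 13.4% with windows of 5 Mb, and 50.6% in 16.5% with 20 Mb. Genes of a few counts, ABCB1 among them, could not be compared.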
